A study of Mus musculus with 30 samples.

Results

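Fatty acid oxidation in embryonic mouse neural stem and progenitor cells (NSPCs) was followed through 36 genes, of 53974 in the deposited table. They were chosen by symbol from a list of enzymes, carriers, PPAR receptors and PPAR target genes. The rule uses no measured value, but the list was drawn up with earlier results of these data known. By role, 8 take up and activate fatty acids, 5 form the carnitine shuttle, 9 belong to the mitochondrial beta-oxidation spiral and 3 to electron transfer. Another 4 work in peroxisomal oxidation, 4 are regulators and 3 are PPAR target genes. NSPCs came from the forebrain of C57BL/6 embryos at embryonic stage E13.5 and were expanded to passage 2-3 with EGF and FGF. Cultures received 1 µM MS-275, 10 mM crotonate or the solvent DMSO as control, each for 24 h, with 4 biological replicates per group. E13.5 forebrain explants of ICR mice were compared with 3 crotonate and 3 control libraries; dose and time are not given in the sources used here. RNA from E13.5 C57BL/6 forebrain tissue was 1 library, and each ChIP list, of pan-crotonyllysine (Kcr) or pan-acetyllysine (Kac) in NSPCs and of H3K9cr or H3K9ac in forebrain, was also 1 library. The labels name no engineered allele in any group.

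Cells burn fatty acids by activating them to acyl-CoA esters, passing them into mitochondria on carnitine and shortening them stepwise in the beta-oxidation spiral. Flavin electrons from the spiral reach the respiratory chain through the electron transfer flavoprotein, while peroxisomes shorten very long and branched chains. The nuclear receptors PPARα, PPARδ and PPARγ bind fatty acids and, paired with RXR, activate many genes of this route. Neural stem cells are known to use fatty acid oxidation to sustain their proliferation. Crotonyl-CoA, the activated form of crotonate, is itself an intermediate of the spiral and a donor for lysine crotonylation, and MS-275 (entinostat) inhibits class I histone deacetylases.

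Promoters that the results turn on are shown first, as the 250 bases before the start site in RefSeq's GRCm38.p6 annotation, 5′ to 3′ on the gene's strand. Ehhadh (chr16:21787835-21788084, minus strand) is shown because all 4 lists of treated NSPCs placed a peak there and neither control list did, and capitals mark the bases under all 4 peaks. For Fabp3 (chr4:130308488-130308737, plus strand) capitals mark the bases under the Kac peaks of both treatments, where the control Kac list had none. For Plin2 (chr4:86670060-86670309, minus strand) capitals mark a match to the PPAR response element, read on the opposite strand. Hadhb (chr5:30155003-30155252, plus strand) shares its promoter with Hadha, and capitals mark the bases under a peak in 5 of the 6 NSPC lists. For Acsl6 (chr11:54303574-54303823, plus strand), which has 3 start sites, the window of 1 of them is shown. Its capitals mark copies of the receptor core motif AGGTCA, read on the opposite strand. The longer stretch is a whole estrogen-related receptor (ERR) element, which contains 1 of the copies.
Ehhadh: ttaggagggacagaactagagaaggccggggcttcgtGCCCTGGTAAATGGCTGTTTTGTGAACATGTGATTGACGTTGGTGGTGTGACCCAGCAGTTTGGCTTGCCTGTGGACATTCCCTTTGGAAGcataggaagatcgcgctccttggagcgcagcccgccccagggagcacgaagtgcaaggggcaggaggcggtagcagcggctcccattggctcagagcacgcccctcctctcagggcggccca
Fabp3: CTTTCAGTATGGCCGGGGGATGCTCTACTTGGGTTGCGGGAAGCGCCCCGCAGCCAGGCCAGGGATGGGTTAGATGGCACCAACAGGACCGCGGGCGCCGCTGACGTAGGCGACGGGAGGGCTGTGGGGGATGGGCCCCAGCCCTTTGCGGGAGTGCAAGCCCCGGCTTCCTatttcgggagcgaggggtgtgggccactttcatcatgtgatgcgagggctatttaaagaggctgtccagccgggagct
Plin2: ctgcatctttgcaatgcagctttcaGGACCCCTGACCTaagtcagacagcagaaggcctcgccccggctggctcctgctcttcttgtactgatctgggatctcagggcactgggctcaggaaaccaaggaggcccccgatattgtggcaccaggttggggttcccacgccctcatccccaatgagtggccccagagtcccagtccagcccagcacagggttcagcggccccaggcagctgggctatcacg
Hadhb: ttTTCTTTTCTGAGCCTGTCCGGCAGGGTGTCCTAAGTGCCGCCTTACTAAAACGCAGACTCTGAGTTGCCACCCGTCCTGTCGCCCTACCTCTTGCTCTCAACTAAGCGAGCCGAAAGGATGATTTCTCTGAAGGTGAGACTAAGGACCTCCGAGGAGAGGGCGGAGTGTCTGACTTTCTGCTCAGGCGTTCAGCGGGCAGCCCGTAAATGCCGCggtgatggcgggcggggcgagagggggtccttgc
Acsl6: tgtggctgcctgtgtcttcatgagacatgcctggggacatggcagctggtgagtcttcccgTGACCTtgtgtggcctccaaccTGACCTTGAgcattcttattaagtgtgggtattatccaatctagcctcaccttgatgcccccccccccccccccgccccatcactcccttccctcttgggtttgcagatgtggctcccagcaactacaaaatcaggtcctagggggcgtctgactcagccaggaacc

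Levels in control NSPCs, given in TPM (transcript abundance scaled by length and library), spanned the whole range from abundant to barely detected. At least 100 TPM were reached on average by 7 members: Acadl, Hadha, Acsl3, Eci2, Hadhb, Hsd17b4 and Slc27a1. Acadl, the long-chain acyl-CoA dehydrogenase, was the most abundant with 285 ± 11.5 TPM (SD, n = 4), above every other member in every control library. Hadha followed with 141 ± 6.90 TPM, Acsl3 with 131 ± 13.8 and Eci2 with 127 ± 6.48, and the ranges of these neighbours overlapped. Another 20 members averaged between 10 and 100 TPM and 5 between 1 and 10 TPM. Under 1 TPM stood Ppara (0.851 ± 0.147 TPM), Pdk4 (0.812 ± 0.437), Cd36 (0.573 ± 0.260) and Angptl4 (0.174 ± 0.115). Among the carnitine palmitoyltransferases Cpt1c (57.7 ± 4.62 TPM) and Cpt1a (44.6 ± 2.53 TPM) were far above Cpt1b (2.28 ± 0.709 TPM), the isoform of muscle. Among the receptors Ppard (24.6 ± 2.38 TPM) was far above Pparg (1.10 ± 0.408 TPM) and Ppara.

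**Figure D1:**
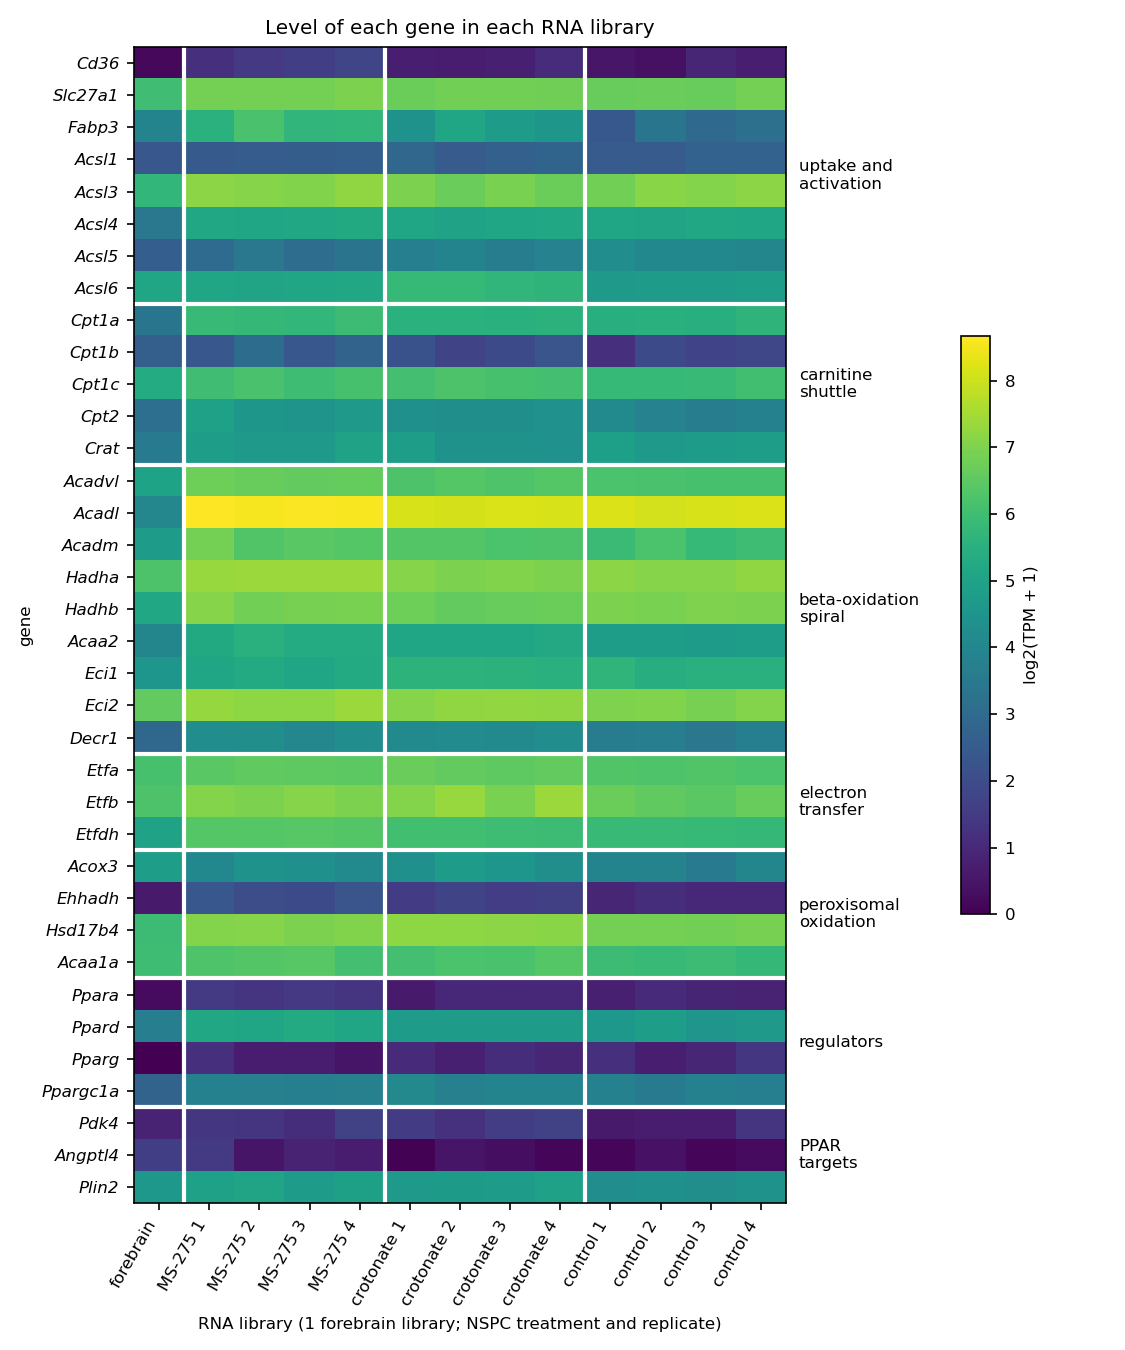
Level of each of the 36 members (rows, grouped by role) in the forebrain library and the 4 MS-275, 4 crotonate and 4 control NSPC libraries (columns), with colour giving log2(TPM + 1) from dark (low) to yellow (high). Acadl is the brightest row in NSPCs and is much darker in forebrain, and Ppara, Pdk4, Cd36 and Angptl4 are the darkest in control cells.

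The cultures carried the markers of their label, and markers of adipocytes and striated muscle, which rely on fatty acid oxidation or storage, were low. All 10 neural stem and radial glia markers reached 1 TPM in control cells, and their summed level was 13613-14284 TPM with MS-275, 9066-9961 with crotonate and 9680-10216.5 in control. The 5 adipocyte markers summed to 0.424-1.63 TPM with MS-275, 0.315-0.537 with crotonate and 0-0.144 in control, with 1 at 0 in all 12 libraries. The 6 striated muscle markers summed to 6.42-8.96 TPM with MS-275, 4.08-8.81 with crotonate and 3.33-8.10 in control, with 1 at 0 throughout. Most of the neural stem and radial glia sum came from Vim (means of 5970 TPM with MS-275, 3459 with crotonate and 3671 in control) and Fabp7 (6898 TPM with MS-275, 5005 with crotonate and 4946 in control). Nes averaged 254 TPM with MS-275, 248 with crotonate and 367 in control, and Pax6 15.5 TPM with MS-275, 20.3 with crotonate and 24.7 in control. The 7 neuron markers summed to 379-396 TPM with MS-275, 281-308 with crotonate and 314-334 in control. Most of that sum was Map2, with means of 318 TPM with MS-275, 244 with crotonate and 303 in control. Snap25 averaged 28.7 TPM with MS-275, 25.0 with crotonate and 4.32 in control, and Tubb3 29.0, 16.1 and 11.8 in that order. Means of Dcx, Stmn2 and Rbfox3 were also higher with both treatments than in control. That of Neurod6 was lower (0.352 TPM with MS-275 and 0.302 with crotonate, against 0.371 in control). The 7 endothelial markers summed to 4.94-6.77 TPM with MS-275, 2.93-4.17 with crotonate and 1.66-2.17 in control. The largest part with treatment was Kdr, at 3.59 TPM with MS-275 and 2.03 with crotonate, against 0.532 in control. The 5 astrocyte markers, genes that radial glia share in part, summed to 135-166 TPM with MS-275, 109-124 with crotonate and 73.7-88.1 in control. The 7 pericyte and fibroblast markers summed to 35.0-50.9 TPM with MS-275, 20.2-28.0 with crotonate and 18.1-27.5 in control. Most of that sum was Cspg4, with means of 29.9 TPM with MS-275, 15.7 with crotonate and 17.0 in control. The part of all these markers in the results below was not tested. Read depth is unknown because TPM alone were deposited, and 14565-14854 genes reached 1 TPM with MS-275, 14388-14595 with crotonate and 13444-13696 in control. In bulk RNA fewer cells of a type and less RNA per cell cannot be told apart.

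Both treatments raised more members than they lowered. With MS-275, 26 of 35 tested members rose, 2 fell and 7 did not pass an adjusted p of 0.05 in limma's test, whereas 37.4% of all 14857 tested genes rose and 27.6% fell. With crotonate, 18 rose, 5 fell and 12 did not pass, against 32.3% of all genes higher and 15.9% lower. The median log2 fold change of the members, on log2(TPM + 1), was 0.39 with MS-275 and 0.08 for all genes, and 0.19 with crotonate and 0.09 for all genes. Angptl4 was too low to be tested. The treatments share their control libraries, so they were read separately below. These changes are relative within each library. Across all genes the median shifted by -0.12 in the crotonate contrast and -0.09 in the MS-275 contrast once median-of-ratios factors were applied, and by -0.13 in each under quantile normalization. With the scalings, 45.4% and 45.6% of all calls in the crotonate contrast were higher in place of 67.1%, and 48.0% and 46.5% in the MS-275 contrast in place of 57.5%. Members called with crotonate became 12 higher and 7 lower with median-of-ratios scaling and 16 and 7 with quantile normalization, and with MS-275 they became 23 and 2, and 22 and 4. No member that was called changed sign under either scaling. How many of all genes have groups of libraries that do not overlap was not counted. Lack of overlap is given below only to describe the values of single genes.

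**Figure D2:**
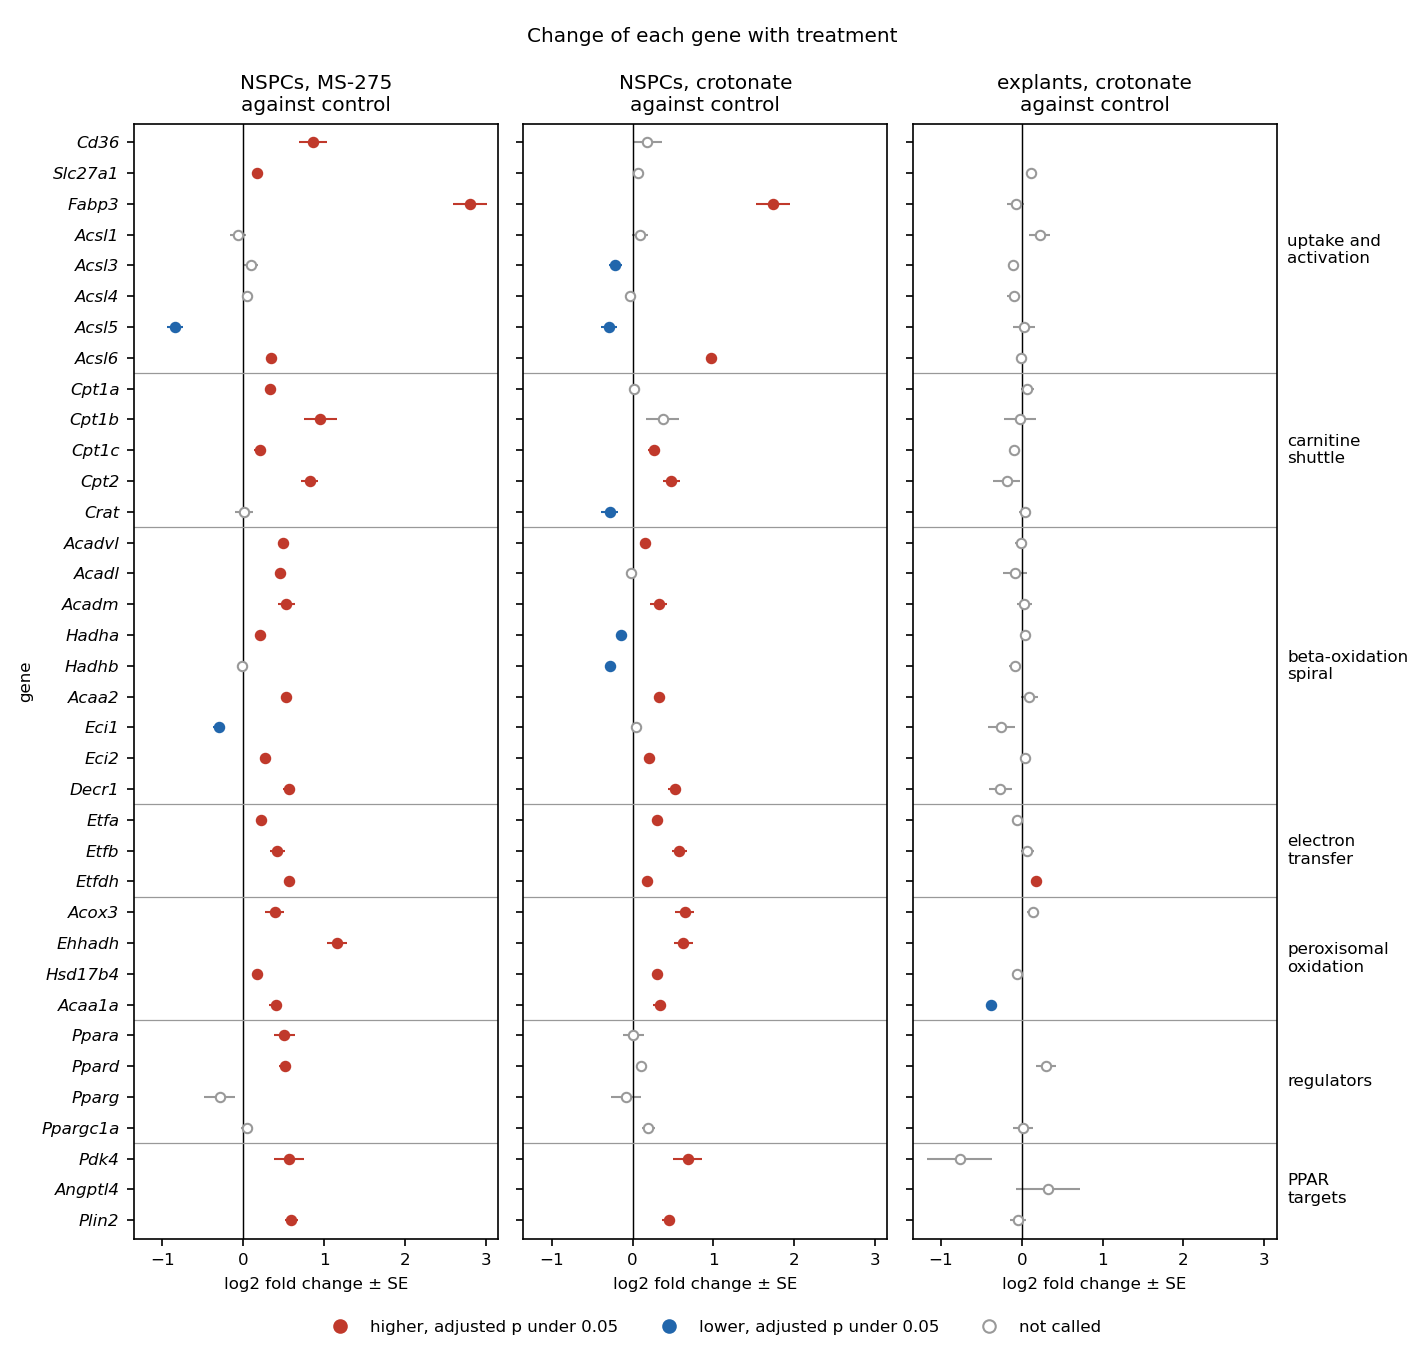
Log2 fold change of each member (rows) with its standard error, for MS-275 against control and crotonate against control in NSPCs (limma, on log2(TPM + 1)) and crotonate against control in explants (the authors' deposited table). Filled points passed an adjusted p of 0.05, red for higher and blue for lower. Fabp3 has the highest value with MS-275, 2.80, Acsl5 the lowest, -0.84, and in explants Etfdh (0.17) and Acaa1a (-0.38) are filled.

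Uptake and activation changed in both directions, led by a rise of Fabp3. Fabp3 carries fatty acids through the cytosol, as in heart muscle. It had 45.2, 71.8, 50.8 and 52.3 TPM with MS-275, 20.7, 33.7, 25.7 and 23.2 with crotonate and 4.22, 9.38, 6.88 and 8.27 in control. The 3 groups did not overlap, with MS-275 highest and control lowest. Mean TPM was 7.65-fold that of control with MS-275 and 3.60-fold with crotonate. On log2(TPM + 1) the log2 fold change was 2.80 ± 0.21 SE with MS-275 (limma adjusted p = 1.65e-07) and 1.74 ± 0.21 with crotonate (adjusted p = 2.94e-05). Fabp3 overlaps Zcchc17 in the annotation, and whether counting used strand is not given in the sources used here. Acsl6, an acyl-CoA synthetase of brain that favours polyunsaturated fatty acids, responded more to crotonate. Its libraries had 33.9, 32.3, 33.0 and 34.5 TPM with MS-275, 55.3, 54.6, 51.8 and 48.3 with crotonate and 24.6, 26.0, 26.4 and 27.8 in control. Again no groups overlapped, and crotonate was highest. The log2 fold change was 0.34 ± 0.05 with MS-275 (adjusted p = 8.84e-05) and 0.98 ± 0.05 with crotonate (adjusted p = 4.25e-08).

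Acsl5, a synthetase of mitochondria and the endoplasmic reticulum, fell in both treatments. It had 7.26, 10.1, 7.49 and 9.16 TPM with MS-275, 12.2, 14.0, 11.9 and 13.3 with crotonate and 17.9, 15.5, 15.7 and 14.7 in control. The groups did not overlap, and MS-275 was lowest (log2 fold change -0.84 ± 0.10, limma adjusted p = 9.25e-06). The crotonate call (-0.29 ± 0.10, limma adjusted p = 0.0297) ended without crotonate replicate 1 or 3 or control replicate 1 or 3, with an adjusted p of 0.0523-0.0870 in these fits. Acsl3, a synthetase of lipid droplets and the endoplasmic reticulum, had 142, 135, 131 and 150.2 TPM with MS-275, 122, 102, 122 and 106 with crotonate and 111, 138, 133 and 142 in control. The crotonate and control libraries overlapped, and the lower level with crotonate (-0.21 ± 0.08, limma adjusted p = 0.0493) did not hold with replicate as a block (adjusted p = 0.0766). It also did not hold without crotonate replicate 2 or 4 or control replicate 2, 3 or 4 (adjusted p = 0.0984-0.137). Acsl3 also overlaps Utp14b. Cd36, a scavenger receptor for fatty acids, rose with MS-275 at a low level (1.87 ± 0.542 TPM, against 0.573 ± 0.260 in control; 0.86 ± 0.18, adjusted p = 0.000917, and 0.105 under quantile normalization) and had a log2 fold change of 0.18 with crotonate, short of the threshold. Slc27a1, the fatty acid transport protein FATP1, rose slightly with MS-275 (117 ± 4.29 TPM, against 105 ± 7.49 in control; 0.17, adjusted p = 0.00833, and 0.196 under median-of-ratios scaling), with overlapping groups. In the crotonate comparison its value of 0.07 was called only without control replicate 4 (adjusted p = 0.0238). Neither Acsl1 (-0.06 with MS-275, 0.09 with crotonate) nor Acsl4 (0.05 with MS-275, -0.04 with crotonate) passed the threshold. Under quantile normalization Acsl1 was lower with MS-275 (adjusted p = 0.000969) and with crotonate (adjusted p = 0.0358), and under median-of-ratios scaling Acsl4 was lower with crotonate (adjusted p = 0.0278).

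**Figure D3:**
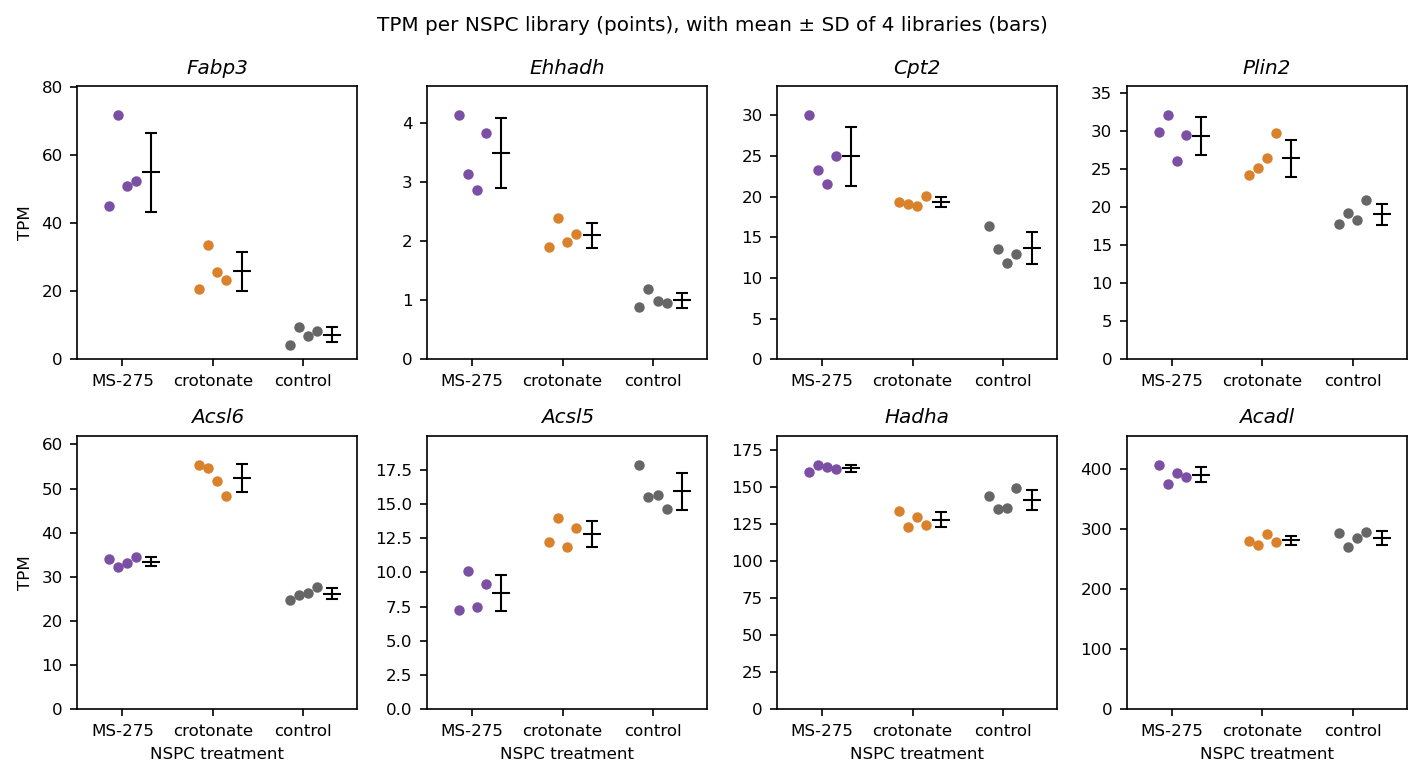
TPM in each of the 4 MS-275, 4 crotonate and 4 control libraries for 8 members, points being libraries and bars the group mean ± SD (n = 4), on an axis that starts at 0 for each gene. Fabp3 and Ehhadh are highest with MS-275, lower with crotonate and lowest in control, Acsl6 is highest with crotonate, and Hadha is highest with MS-275 and lowest with crotonate.

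In the carnitine shuttle 4 of 5 members rose with MS-275 (37.4% of all genes rose), while with crotonate 2 rose and 1 fell (32.3% and 15.9% of all genes). The crotonate counts are near the shares over all genes. Cpt2, which hands the acyl group back to CoA inside the mitochondrion, had 30.0, 23.3, 21.6 and 25.0 TPM with MS-275, 19.3, 19.1, 18.8 and 20.1 with crotonate and 16.4, 13.52, 11.8 and 12.98 in control. The groups were ordered MS-275, crotonate, control without overlap (log2 fold change 0.82 ± 0.10, limma adjusted p = 1.58e-05 with MS-275 and 0.48 ± 0.10, adjusted p = 0.00216 with crotonate). Cpt1a, the outer membrane transferase that sets the rate of entry in many tissues, had 57.7, 53.6, 52.3 and 61.2 TPM with MS-275, 45.1, 45.4, 44.3 and 46.3 with crotonate and 43.6, 44.1, 42.5 and 48.3 in control. It rose with MS-275 (0.33 ± 0.05, adjusted p = 0.000183), with every MS-275 library above every other, whereas the crotonate and control libraries overlapped (0.02). Cpt1b had 4.09, 7.41, 4.12 and 5.81 TPM with MS-275, 3.60, 2.47, 2.83 and 3.88 with crotonate and 1.26, 2.89, 2.37 and 2.58 in control. This muscle isoform rose with MS-275 (0.95 ± 0.20, adjusted p = 0.0012), and the crotonate value of 0.37 missed the threshold (adjusted p = 0.152). Its call ended under quantile normalization (adjusted p = 0.0730), and Cpt1b overlaps the gene Gm44502. Cpt1c, an isoform of neurons that sits in the endoplasmic reticulum and has little transferase activity, rose by 0.20 with MS-275 (66.6 ± 4.96 TPM, against 57.7 ± 4.62 in control; adjusted p = 0.0158) and by 0.26 with crotonate (69.3 ± 3.59 TPM; adjusted p = 0.00546). Neither Cpt1c call held under median-of-ratios scaling (adjusted p = 0.159 with MS-275 and 0.0917 with crotonate).

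Crat, the carnitine acetyltransferase that buffers short acyl groups, had 27.9, 24.8, 24.9 and 31.0 TPM with MS-275, 28.3, 20.5, 20.2 and 19.7 with crotonate and 28.6, 24.4, 26.5 and 28.3 in control. Crotonate replicate 1 lay with the control libraries and the other 3 below all of them. Crat was lower with crotonate by -0.28 ± 0.11 (limma adjusted p = 0.0485) and stood at 0.01 with MS-275. The adjusted p of the crotonate call ranged from 0.00200, without crotonate replicate 1, to 0.125, and the call ended without crotonate replicate 2, 3 or 4 or control replicate 1, 3 or 4. Crat overlaps Dolpp1 in the annotation.

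Of the 9 members of the mitochondrial spiral, 7 rose and 1 fell with MS-275 (37.4% and 27.6% of all genes), and 5 rose and 2 fell with crotonate (32.3% and 15.9%). The 2 that fell with crotonate were Hadha and Hadhb, which encode the α and β subunits of the trifunctional protein. Hadha had 160.0, 165, 164 and 162 TPM with MS-275, 134, 123, 130.2 and 125 with crotonate and 144, 135, 136 and 149.8 in control. The groups did not overlap, with crotonate below and MS-275 above control. Hadha rose by 0.20 ± 0.04 with MS-275 (limma adjusted p = 0.000599) and fell by 0.14 with crotonate (SE 0.04, adjusted p = 0.0115). Hadhb fell by 0.28 with crotonate (101 ± 4.84 TPM, against 123 ± 2.01 in control; SE 0.06, adjusted p = 0.00134) and stood at -0.01 with MS-275 (122 ± 10.8 TPM; adjusted p = 0.86). Both genes start within 273 bp of each other and are read in opposite directions.

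The dehydrogenases that open each turn of the spiral, Acadm, Acadvl and Acadl, rose with MS-275, and Acadm and Acadvl were also called higher with crotonate. Acadm, for medium chains, had 116, 78.4, 87.5 and 82.8 TPM with MS-275, 80.9, 80.8, 74.0 and 75.0 with crotonate and 58.8, 72.7, 55.3 and 62.0 in control. Every treated library was above every control library (log2 fold change 0.53 ± 0.11, limma adjusted p = 0.000937 with MS-275 and 0.32 ± 0.11, adjusted p = 0.0292 with crotonate). The crotonate call ended under median-of-ratios scaling (limma adjusted p = 0.148) and without crotonate replicate 1 or 2 or control replicate 1, 3 or 4 (0.0521-0.0842). Acadvl, for very long chains, had 107, 101, 96.0 and 97.3 TPM with MS-275, 75.7, 81.9, 77.6 and 81.6 with crotonate and 73.3, 71.0, 69.9 and 69.7 in control. The 3 groups again did not overlap (0.49 ± 0.04, adjusted p = 5.09e-07 with MS-275 and 0.16 ± 0.04, adjusted p = 0.00863 with crotonate), and the crotonate call ended under median-of-ratios scaling (0.03, adjusted p = 0.634). Acadl, for long chains, rose with MS-275 (390.3 ± 12.9 TPM with MS-275 and 281 ± 7.23 with crotonate, against 285 ± 11.5 in control; 0.45 ± 0.04, adjusted p = 2.85e-07), and its crotonate value of -0.02 did not pass (adjusted p = 0.632) except under median-of-ratios scaling (-0.15, adjusted p = 0.00283).

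Acaa2, Decr1 and Eci2, which close the spiral or prepare unsaturated chains, rose in both treatments, whereas Eci1 fell with MS-275. Acaa2, the thiolase that releases acetyl-CoA, had 37.3, 44.1, 38.9 and 39.2 TPM with MS-275, 33.5, 34.2, 34.3 and 36.4 with crotonate and 27.1, 28.0, 27.0 and 27.6 in control. Decr1, the reductase needed for polyunsaturated chains, had 18.01, 18.5, 15.3 and 18.2 TPM with MS-275, 16.4, 16.9, 16.5 and 17.96 with crotonate and 11.8, 11.97, 9.96 and 12.4 in control. For both genes all 8 treated libraries were above all 4 control libraries. Acaa2 rose by 0.52 ± 0.05 with MS-275 (limma adjusted p = 1.92e-06) and 0.32 ± 0.05 with crotonate (adjusted p = 0.000253), and Decr1 by 0.56 ± 0.08 with MS-275 (adjusted p = 3.67e-05) and 0.52 ± 0.08 with crotonate (adjusted p = 0.000154). The isomerases of unsaturated chains parted. Eci2 rose by 0.26 with MS-275 (153 ± 9.31 TPM, against 127 ± 6.48 in control) and by 0.20 with crotonate (147 ± 7.03 TPM; adjusted p = 0.00634), whereas Eci1 fell by 0.31 with MS-275 (36.3 ± 2.54 TPM, against 45.1 ± 3.58 in control; adjusted p = 0.00094) and stood at 0.04 with crotonate. The crotonate call of Eci2 ended under median-of-ratios scaling (adjusted p = 0.226).

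All 3 genes of electron transfer rose in both treatments, where 37.4% of all genes rose with MS-275 and 32.3% with crotonate. Etfb, the β subunit of the electron transfer flavoprotein, had 132, 123, 135 and 124 TPM with MS-275, 132, 162, 121 and 163 with crotonate and 104, 92.7, 86.2 and 101 in control. Its α subunit Etfa had 86.2, 92.5, 91.7 and 88.7 TPM with MS-275, 101, 95.4, 90.5 and 94.5 with crotonate and 79.0, 76.4, 78.5 and 74.1 in control. Etfdh, which passes the electrons on to ubiquinone, had 82.9, 81.8, 83.8 and 81.0 TPM with MS-275, 64.5, 65.3, 62.1 and 59.9 with crotonate and 56.3, 56.6, 55.5 and 53.7 in control. In each of the 3 genes every treated library was above every control library, a pattern that was not counted over all genes. Etfb rose by 0.42 ± 0.09 with MS-275 and 0.58 ± 0.09 with crotonate and Etfa by 0.22 ± 0.04 with MS-275 and 0.31 ± 0.04 with crotonate, while Etfdh rose by 0.56 ± 0.04 with MS-275 (limma adjusted p = 4.48e-08) and 0.18 ± 0.04 with crotonate (adjusted p = 0.00155). The crotonate call of Etfdh ended under median-of-ratios scaling (adjusted p = 0.328), and Etfdh overlaps Ppid.

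All 4 peroxisomal members rose in both treatments, where 37.4% of all genes rose with MS-275 and 32.3% with crotonate. Ehhadh, the bifunctional enzyme of the classical PPARα-inducible peroxisomal pathway in rodent liver, had 4.13, 3.14, 2.86 and 3.83 TPM with MS-275, 1.89, 2.39, 1.99 and 2.11 with crotonate and 0.892, 1.18, 0.981 and 0.949 in control. The groups did not overlap, and mean TPM was 3.49-fold that of control with MS-275 and 2.10-fold with crotonate. The log2 fold change, on log2(TPM + 1), which understates the change of low genes, was 1.16 ± 0.12 with MS-275 (limma adjusted p = 2.4e-06) and 0.63 ± 0.12 with crotonate (adjusted p = 0.000819). The crotonate call ended under quantile normalization (adjusted p = 0.118). Acox3, an oxidase of branched chains, had 15.7, 20.5, 19.2 and 16.3 TPM with MS-275, 19.4, 25.8, 22.5 and 18.7 with crotonate and 13.9, 13.6, 11.3 and 14.9 in control. Crotonate libraries overlapped MS-275 libraries, and all were above control (0.39 ± 0.12, adjusted p = 0.0103 with MS-275 and 0.64 ± 0.12, adjusted p = 0.000638 with crotonate). Hsd17b4, the other bifunctional enzyme, had 132, 135, 122 and 131 TPM with MS-275, 145, 144, 141 and 138 with crotonate and 115, 116, 113 and 117 in control. Here crotonate was the highest group, without overlap (0.17, adjusted p = 0.000812 with MS-275 and 0.30 ± 0.04, adjusted p = 2.39e-05 with crotonate), and the MS-275 call ended under median-of-ratios scaling (adjusted p = 0.0559).

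Acaa1a, the peroxisomal thiolase, had 76.6, 80.5, 83.5 and 67.0 TPM with MS-275, 65.9, 73.1, 72.0 and 83.2 with crotonate and 60.3, 56.2, 61.1 and 53.9 in control. All treated libraries were above control (0.40 ± 0.08, limma adjusted p = 0.000639 with MS-275 and 0.34 ± 0.08, adjusted p = 0.00367 with crotonate), although the crotonate call ended under median-of-ratios scaling (adjusted p = 0.0561). Its close paralog Acaa1b, named after its values were seen, averaged 3.92 ± 0.708 TPM with MS-275, 4.65 ± 0.827 with crotonate and 0.706 ± 0.388 in control. How reads were split between these paralogs is uncertain, so the size of the change of Acaa1a is too.

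Of the 4 regulators Ppara and Ppard rose with MS-275 (37.4% of all genes rose), and none passed the threshold with crotonate (32.3% of all genes rose and 15.9% fell). Ppard, the most abundant PPAR gene here, had 35.6, 34.2, 38.5 and 33.5 TPM with MS-275, 26.0, 26.6, 27.0 and 26.3 with crotonate and 23.8, 27.9, 22.2 and 24.4 in control. All MS-275 libraries were above all others (log2 fold change 0.51 ± 0.07, limma adjusted p = 1.82e-05), and the crotonate value of 0.11 missed the threshold (adjusted p = 0.203) unless control replicate 2 was left out (0.0341). Ppara, the receptor best known in liver, stayed low but rose with MS-275 (1.63 ± 0.143 TPM with MS-275 and 0.870 ± 0.223 with crotonate, against 0.851 ± 0.147 in control; 0.51 ± 0.13, adjusted p = 0.00409), a call that ended under quantile normalization (adjusted p = 0.882). Under that normalization Ppara was lower with crotonate (adjusted p = 0.0222). Pparg, the receptor of adipocytes, averaged 0.723 ± 0.383 TPM with MS-275, 0.969 ± 0.220 with crotonate and 1.10 ± 0.408 in control, with overlapping groups (-0.29 with MS-275 and -0.08 with crotonate, neither past the threshold). Under quantile normalization Pparg was lower in both comparisons with control (adjusted p = 0.00199 with MS-275 and 0.0340 with crotonate). Ppargc1a, the coactivator of mitochondrial biogenesis, averaged 12.7 ± 0.186 TPM with MS-275, 14.2 ± 1.25 with crotonate and 12.3 ± 1.23 in control. Its crotonate value of 0.19 missed the threshold (adjusted p = 0.0574) but passed it with replicate as a block (adjusted p = 0.0324) and without crotonate replicate 2 or control replicate 1 or 3 (lowest 0.0313).

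The tested PPAR target genes Plin2 and Pdk4 rose in both treatments. Plin2, a coat protein of lipid droplets, had 29.98, 32.1, 26.1 and 29.5 TPM with MS-275, 24.2, 25.2, 26.6 and 29.8 with crotonate and 17.8, 19.3, 18.4 and 20.96 in control. No treated library came down to a control library (0.60 ± 0.08, limma adjusted p = 2.4e-05 with MS-275 and 0.45 ± 0.08, adjusted p = 0.000516 with crotonate). Pdk4, a kinase that turns off pyruvate dehydrogenase and so spares glucose carbon, was low in all groups, at 1.61, 1.53, 1.20 and 2.30 TPM with MS-275, 1.90, 1.35, 1.95 and 2.28 with crotonate and 0.558, 0.624, 0.601 and 1.47 in control. Control replicate 4 lay within the treated groups and the other 3 control libraries below them. Its log2 fold change was 0.56 ± 0.18 with MS-275 (adjusted p = 0.0163; 0.0535 without MS-275 replicate 4) and 0.68 ± 0.18 with crotonate (adjusted p = 0.00842), and both calls ended under quantile normalization (adjusted p = 0.782 with MS-275 and 0.252 with crotonate). Angptl4, a secreted inhibitor of lipoprotein lipase, averaged 0.898 ± 0.608 TPM with MS-275, 0.192 ± 0.165 with crotonate and 0.174 ± 0.115 in control and was not tested.

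Set against each other, MS-275 gave higher levels than crotonate for 16 members and lower levels for 4, with 15 not called, where 19.3% of all genes were higher and 27.4% lower. In the carnitine shuttle 4 of 5 members were higher: Cpt1b by 0.58 (limma adjusted p = 0.0334), Cpt2 by 0.34 (0.016), Cpt1a by 0.30 (0.00064) and Crat by 0.29 (0.046). The Cpt1b call ended without MS-275 replicate 2 or 4 or crotonate replicate 2 or 3 (0.0764-0.101), and the Crat call without MS-275 replicate 1 or 4 or crotonate replicate 2, 3 or 4 (0.0921-0.129). In the spiral Acadl (0.47, adjusted p = 8.66e-07), Acadvl (0.34, 4.12e-05), Hadha (0.34, 2.16e-05), Hadhb (0.26, 0.00193) and Acaa2 (0.20, 0.00776) were higher with MS-275, and Eci1 was lower (-0.35, 0.000674). Fabp3 (1.06, adjusted p = 0.00129), Cd36 (0.68, 0.00755), Ehhadh (0.53, 0.00285), Ppara (0.50, 0.0073), Ppard (0.41, 0.00029), Etfdh (0.38, 4.63e-06) and Acsl3 (0.31, 0.00868) were also higher. Lower with MS-275 than with crotonate were the synthetases Acsl6 (-0.63, adjusted p = 1.52e-06) and Acsl5 (-0.55, 0.000655) and the peroxisomal Hsd17b4 (-0.12, 0.0116). Quantile normalization ended the calls of Cpt1b (0.0547) and Hsd17b4 (0.151), and added Acsl4 (0.0292) and Plin2 (0.0338) as higher, while both scalings added Slc27a1 (0.0327 and 0.0326). Etfb passed the threshold without crotonate replicate 3 (0.0368, lower with MS-275) and Plin2 without crotonate replicate 4 (0.0475). Crotonate and MS-275 were each given at 1 dose, so these differences are between these doses.

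Other genes of fatty acid handling, 78 in a companion list of which 65 were tested, moved in both directions too. With MS-275, 37 rose and 9 fell, and with crotonate 30 rose and 10 fell, with median log2 fold changes of 0.30 with MS-275 and 0.21 with crotonate. That is 56.9% higher and 13.8% lower with MS-275, against 37.4% and 27.6% of all genes, and 46.2% higher and 15.4% lower with crotonate, against 32.3% and 15.9%. The median over all genes was 0.08 with MS-275 and 0.09 with crotonate. Ucp2, a mitochondrial carrier that cells using fatty acids often express, averaged 132 ± 15.4 TPM with MS-275, 65.5 ± 7.67 with crotonate and 9.04 ± 1.63 in control (log2 fold change 3.73 with MS-275 and 2.74 with crotonate). Plin3, another lipid droplet protein, averaged 10.5 TPM with MS-275, 6.57 with crotonate and 1.17 in control, and Acsf2, an acyl-CoA synthetase of mitochondria, 45.6 TPM with MS-275, 30.9 with crotonate and 9.92 in control. Among companion genes averaging at least 5 TPM in the higher group these 3 had the largest rises in each treatment. Lower were Pprc1, a coactivator related to Ppargc1a (-1.23 with MS-275 and -0.70 with crotonate), Oxct1, which activates ketone bodies (-0.81 with MS-275 and -0.43 with crotonate), with MS-275 Fabp5 (-0.58) and with crotonate the lipase Pnpla2 (-0.44). MS-275 was above crotonate for Ucp2 (1.00), Pnpla2 (0.64) and Plin3 (0.60) and below it for lipoprotein lipase Lpl (-0.80), Pprc1 (-0.53) and the thiolase Acat1 (-0.43), all past the threshold in limma's test.

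In forebrain explants treated with crotonate the members hardly moved. The authors' deposited table gave an adjusted p for 32 members, of which 1 was higher and 1 lower at 0.05, against 10.5% of all 14507 genes higher and 9.75% lower. Acaa1a was lower with crotonate in the authors' deposited table, with a log2 fold change of -0.38 ± 0.05 (SE), an adjusted p of 2.84e-12 and a mean of 1077 normalized counts. Etfdh was higher in the same deposited table, by 0.17 ± 0.06 with an adjusted p of 0.0329 and a mean of 660 normalized counts. In NSPCs Acaa1a and Etfdh both rose with crotonate, but the difference between NSPCs and explants was not tested, and strain and culture differ between them. Of members that rose with crotonate in NSPCs, the explant log2 fold changes in the authors' deposited table were -0.08 for Fabp3 (adjusted p = 0.704), -0.01 for Acsl6 (0.876), -0.77 for Pdk4 (SE 0.40, adjusted p = 0.180), 0.14 for Acox3 (0.157), 0.07 for Etfb (0.641), -0.27 for Decr1 (0.185), -0.18 for Cpt2 (0.506) and -0.04 for Plin2 (0.840). Ppard (0.30, adjusted p = 0.0551), Slc27a1 (0.12, 0.0511) and Acsl3 (-0.11, 0.0511) were closest to the threshold in that deposited table. No adjusted p was computed by the authors for Cd36, Ehhadh, Ppara and Pparg, whose mean normalized counts were 5.73, 10.7, 4.01 and 1.22. The median log2 fold change was -0.01 over members and 0.00 over all genes in the deposited table. Of the companion list, 8 of 62 genes were higher and 3 lower there, among them Lipe (0.53), Abcd2 (0.38) and Lpl (0.29) higher and Slc27a2 (-0.63) and Hadh (-0.29) lower. The deposited table holds no values per library, and its direction is known from the name it was deposited under.

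Relative to cultured NSPCs of the same stage, forebrain tissue had lower levels of most members. Between the 1 forebrain library and the mean of 4 control NSPC libraries, 10 of 35 members were at least 2-fold lower and 1 was at least 2-fold higher on log2(TPM + 1) and outside the control range, against 11.3% of all genes lower and 19.1% higher. With 1 library of tissue there is no test. Under median-of-ratios scaling 18 members were lower and 0 higher, and at 1.5-fold 21 were lower and 3 higher. The shares of all genes were counted only for the 2-fold limit without further scaling and with all 4 control libraries. They cannot be set beside the counts under other settings. Acadl stood furthest apart at 15.1 TPM in forebrain and 285 TPM in control NSPCs, a log2 difference of -4.15. Cpt1a followed with 9.26 TPM in forebrain and 44.6 TPM in NSPCs (-2.15). Hadhb (-1.74), Acsl4 (-1.66), Acsl5 (-1.49), Acsl3 (-1.29), Crat (-1.23), Acadm (-1.20), Acadvl (-1.16) and Pparg (-1.05, listed at 0 in forebrain) were the others. Just short of the limit were Ppargc1a (-0.96), Ppard (-0.95) and Eci1 (-0.95). Acox3 was the member that was higher, with 27.8 TPM in forebrain and 13.4 ± 1.53 in NSPCs (1.01), and Cpt1b (0.96) and Fabp3 (0.92) lay just below the limit. The count of higher members was 3 without control replicate 2, 0 without replicate 3 and 2 without replicate 4. Angptl4, untested, had 2.03 TPM in forebrain and 0.174 in NSPCs. The median difference was -0.71 over members and 0.20 over all genes.

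The tissue also held other cells, as its markers show. Summed erythroid markers were at 9192 TPM in forebrain and 0.152-1.14 in control NSPCs, neuron markers at 3156 and 314-334, and endothelial markers at 61.5 and 1.66-2.17. Neural stem and radial glia markers were at 2491 TPM in forebrain and 9680-10216.5 in NSPCs. Their part in the lower member levels was not tested.

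**Figure D4:**
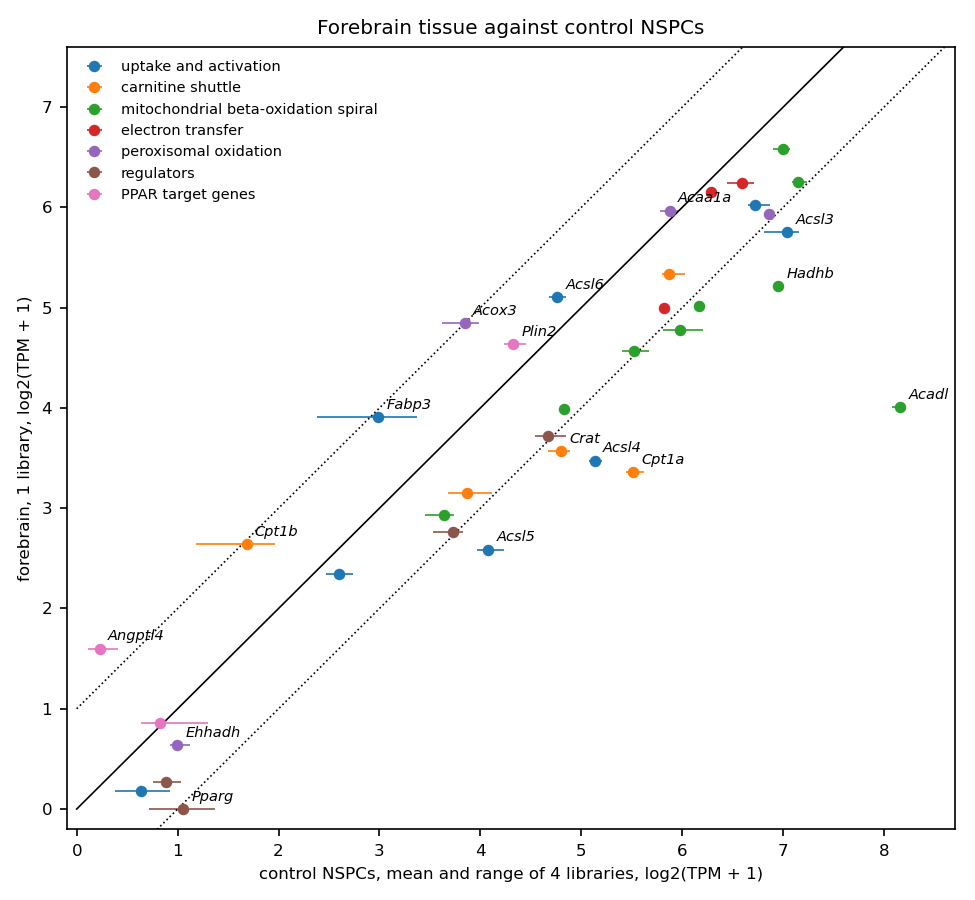
Level of each member in the forebrain library (vertical axis) against its mean in the 4 control NSPC libraries (horizontal axis), both as log2(TPM + 1), with bars for the range of the control libraries, a solid line at equality, dotted lines at 2-fold apart and colours for roles. Most members lie below the line of equality, Acadl furthest at 15.1 TPM against 285 TPM.

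Kcr and Kac peaks were listed at fewer members with MS-275, whose lists were the shortest. Ehhadh and Plin2 had peaks with treatment where neither control list had any, and Fabp3 had Kac peaks absent from the control Kac list. A member was counted when at least 1 base of a peak lay within 1 kb of its gene body. Kcr peaks were listed at 9 of 36 members with MS-275 (23.4% of 13769 tested genes with positions), 25 with crotonate (74.7%) and 21 in control (64.6%). Kac peaks were listed at 15 members with MS-275 (25.4% of those genes), 28 with crotonate (70.3%) and 26 in control (73.0%). These lists differ in length, with 5845 Kcr and 7555 Kac peaks with MS-275, 23301 and 21616 with crotonate and 17669 and 23427 in control. In forebrain, 23 members had an H3K9cr peak (78.1% of genes) and 31 an H3K9ac peak (88.2%). Each list rests on 1 library, positions alone were deposited for NSPCs, and a missing peak does not show that the mark was absent.

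Against control, a Kcr peak was listed with MS-275 alone at 3 members and in control alone at 15, where 3.41% and 44.6% of genes did the same. The corresponding Kac counts were 3 and 14 (2.12% and 49.8% of genes). With crotonate alone a Kcr peak was listed at 5 members, Etfa, Etfb, Ehhadh, Ppara and Plin2, and in control alone at Hsd17b4 (15.9% and 5.82% of genes). The 5 are 13.9% of the members, near the share over all genes. A Kac peak was listed with crotonate alone at 5 members, Fabp3, Acsl4, Ehhadh, Pparg and Plin2, and in control alone at 3, Decr1, Acox3 and Angptl4 (8.40% and 11.1% of genes). With MS-275 the Kac peaks absent from the control list were at Fabp3, Ehhadh and Plin2, and the Kcr peaks at Etfb, Ehhadh and Pparg.

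Some tested members rose in RNA both where a list had gained a peak and where none had. With MS-275, 2 of 3 members with a Kcr peak in the MS-275 list alone rose, all but Pparg, as did 4 of 6 with one in both lists, 11 of 15 with one in control alone and 9 of 11 with one in neither. For Kac with MS-275 the counts were 3 of 3, 8 of 12, 10 of 13 and 5 of 7 in the same order. With crotonate, 4 of 5 members with a Kcr peak in the crotonate list alone rose, all but Ppara, as did 9 of 20 with one in both lists, 1 of 1 with one in control alone and 4 of 9 with one in neither. For Kac with crotonate the counts were 3 of 5, 10 of 23, 2 of 2 and 3 of 5 in that order. Over all genes with positions, 71.9% of those with a Kcr peak in the MS-275 list alone and 53.7% of those with one in the crotonate list alone rose, against 29.5% and 22.1% of those with one in control alone. For Kac these shares were 74.0% with MS-275 and 64.2% with crotonate, against 31.0% and 24.2%. Of all genes with a Kcr peak in both lists, 38.7% rose with MS-275 and 28.1% with crotonate. With one in neither list, 48.6% and 38.0% did. For Kac the shares were 38.8% with MS-275 and 29.5% with crotonate for both lists, and 51.8% and 40.0% for neither. Angptl4 was not tested and is in none of these counts, and no difference between the member counts was tested.

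**Figure D5:**
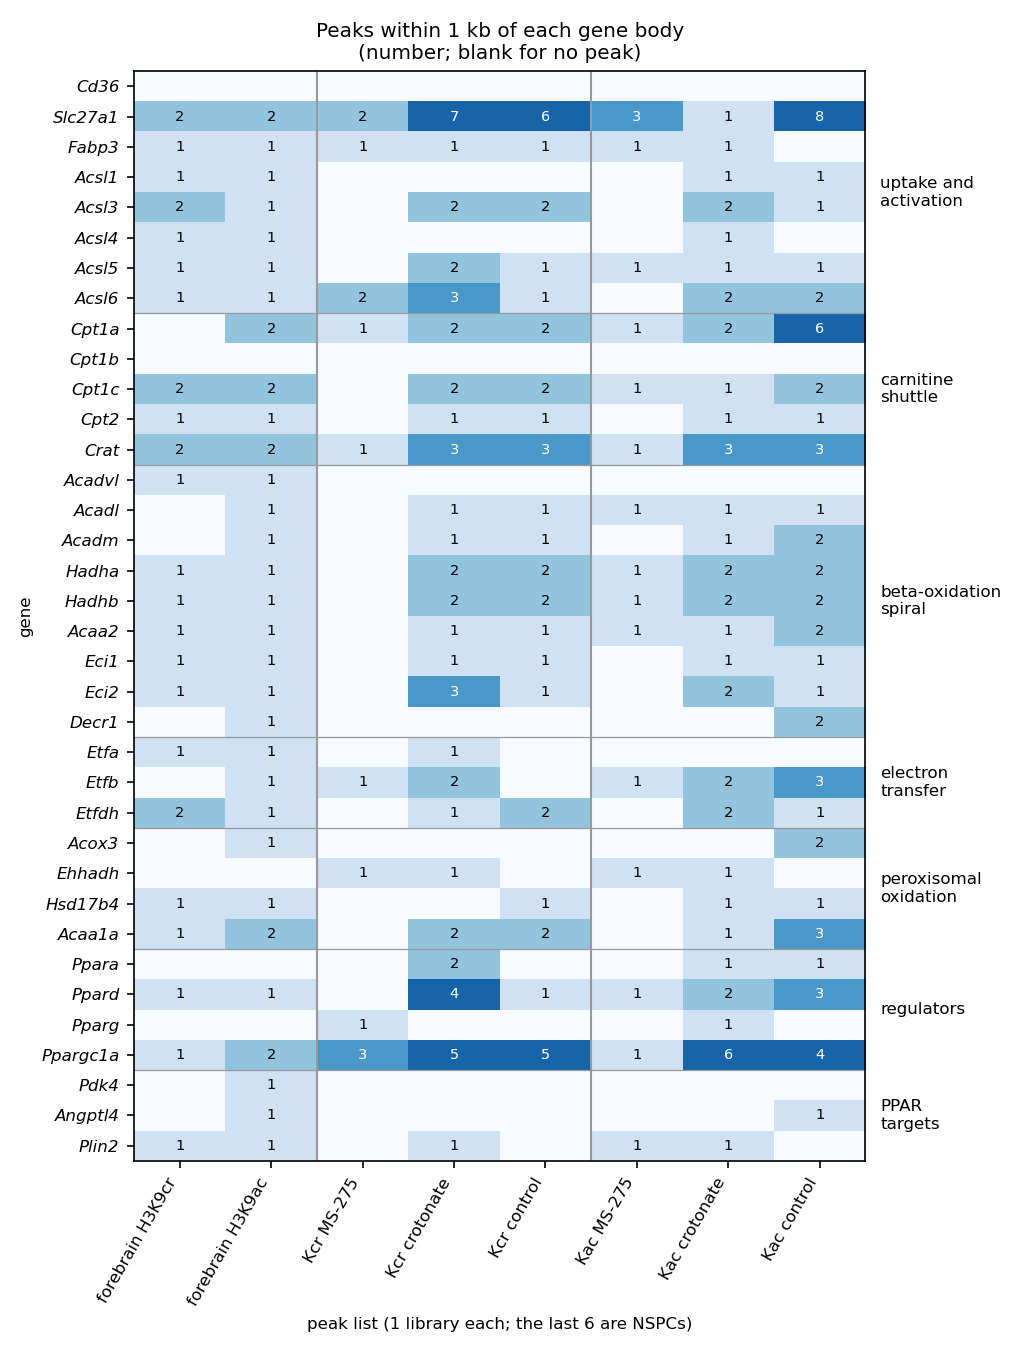
Number of peaks within 1 kb of the gene body for each of the 36 members (rows) in the 6 NSPC lists and the 2 forebrain lists (columns). Ehhadh has peaks in all 4 lists of treated NSPCs and in none of the control or forebrain lists, and Cd36 and Cpt1b have none in any list.

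Among the members, the positions of these peaks set the treated lists apart most clearly at Ehhadh. In MS-275 cells its promoter held a Kcr peak at chr16:21787719-21788078 and a Kac peak at chr16:21787957-21788162, and in crotonate cells a Kcr peak at chr16:21787873-21788047 and a Kac peak at chr16:21787796-21788083. They share the 91 bases in capitals in the sequence above, which end upstream of the start site. The nearest control peaks were 6070 bp (Kcr) and 5934 bp (Kac) from the start site, and the nearest forebrain peaks 6025 bp (H3K9cr) and 5840 bp (H3K9ac). The share of all genes with a peak in every treated list and in neither control list was not counted. At Fabp3 the Kac peaks ran over chr4:130308227-130308659 with MS-275 and chr4:130308400-130308692 with crotonate, while the nearest Kac peak in control was 33939 bp away. All 3 Kcr lists had a peak at Fabp3, so there the lists differ in Kac. At Plin2 the MS-275 list had a Kac peak at chr4:86670063-86670373, and the crotonate lists a Kcr peak at chr4:86669785-86670284 and a Kac peak at chr4:86670164-86670357. The nearest control peaks to the Plin2 start site were 57631 bp (Kcr) and 57227 bp (Kac) away. The forebrain lists did hold peaks over the start sites of Fabp3 and Plin2 for both marks. In forebrain the authors' fold enrichment at members ran up to 39.2 for H3K9ac and 21.2 for H3K9cr, both at Acsl3, with medians of 10.7 over 37 peaks and 6.87 over 28 peaks.

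Promoter letters were searched in windows of 250 bases before and 50 after the start site, which RefSeq's GRCm38.p6 table held for 30 of the 36 members, in 37 windows. The nuclear receptor core motif AGGTCA, on either strand, was found in 8 members (26.7%), Acadm, Plin2, Cd36, Pparg, Cpt1c, Acsl6, Acadvl and Cpt1a, and in 18.1% of 27025 genes with such windows. The PPAR response element was taken as a direct repeat of AGGTCA with 1 base between the copies, on either strand, and with at most 2 mismatches it was found in Plin2, Cd36 and Etfa (10% of members and 4.40% of genes). With at most 1 mismatch it was found in 0 members and 0.644% of genes. In Plin2 the element lies under the Kac peaks of both treatments and under the Kcr peak of crotonate. No control NSPC peak covers the Plin2 element, but the H3K9ac peak of untreated forebrain does. The ERR element TCAAGGTCA, which contains the core motif, was found in Acsl6 alone and in 0.466% of genes, and a forebrain H3K9ac peak covers it. The Sp1 box GGGCGG was found in 23 members (76.7%) and 38.2% of genes, and median GC content was 60% in member windows and 52.4% in all windows. The 27025 genes include many that were not tested in NSPCs, so the members and this background are unlike sets. These matches are letters in a window and say nothing of binding.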

How the data were processed

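RNA was measured in 12 NSPC libraries, 6 explant libraries and 1 forebrain library, and histone acylation in 8 ChIP libraries. Salmon 1.0.0, DESeq2 1.26.0, Bowtie2 2.3.5.1 and MACS2 2.2.5 and the build GRCm38 are named in the submitters' processing notes. The TPM table was deposited by the authors, with no read counts, so depth is unknown. For the explants the authors deposited 1 table, with a signal column (mean DESeq2-normalized counts), log2 fold changes with their SE, a score (the fold change over its SE) and p-values, per the file headers. Rows without a computed adjusted p carry 1 in the table the authors deposited. As deposited, each forebrain peak has a score, a fold enrichment ratio and -log10 p and q values, and NSPC peaks have positions alone.

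The members, lists and tests were chosen with earlier results of these data known. TPM were taken as log2(TPM + 1), which understates the change of low genes. After a filter of 1 TPM in 4 or more of the 12 libraries, limma 3.58.1 under R 4.3.3 (eBayes with trend) was run in 1 fit of 3 groups, two-sided, with Benjamini-Hochberg adjustment over 14857 genes and a threshold of 0.05. The procedure was checked on simulated data. Benjamini-Hochberg adjustment over the 14507 explant rows with an adjusted p gave the authors' value within 1e-06 in all 14507. The forebrain was compared by a 2-fold limit with no test. Promoters, motifs and figures were handled in Python 3.11.15 with pandas 2.3.3, NumPy 2.4.6 and matplotlib 3.10.9.

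All 36 members are named; libraries are given in full for up to 4 called members per role with the largest change and at least 2 TPM, for members called in opposite directions, and for those called in explants. Companion genes are named up to 3 per direction and comparison.

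The labels do not say what libraries of the same replicate number share. Deviations from group means correlated at 0.119-0.241 in the 12 same-numbered pairs of libraries and at -0.197 to 0.0993 in the 36 other pairs. The main fit did not use replicate numbers, and replicate as a block was an alternative. Alternatives were other pseudocounts, filters, scalings, fits, thresholds, peak windows and each replicate left out. Input, IgG and bisulfite libraries were not analysed here.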

Additional observations from a re-analysis of the deposited data

Results flagged for a closer look

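Among 108 groups of 4 libraries (each member in each NSPC group), 3 held a library whose gap to its nearest neighbour exceeded the critical value of 0.829 of the group's range; chance alone flags about 1 in 20 groups. Crotonate replicate 1 had 28.3 TPM of Crat, while the other 3 crotonate libraries had 19.7-20.5 TPM (gap over range 0.907). MS-275 replicate 3 had 15.3 TPM of Decr1, while the other 3 had 18.01-18.5 TPM (0.839). Control replicate 4 had 1.47 TPM of Pdk4, while the other 3 had 0.558-0.624 TPM (0.928). Without these libraries the Crat call with crotonate, the Decr1 call with MS-275 and both Pdk4 calls kept their direction and stayed past the threshold.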

How the results depend on the processing

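Counts of members within 1.5 times the reported one are not listed. Members lower with crotonate (5 reported) were 2 without a filter on low values, 3 without a trend, 3 with the 2 groups alone, 1 at an adjusted p of 0.01 and 2-4 with each replicate left out. Members lower with MS-275 (2) were 4 under quantile normalization. In explants the 1 higher member became 0 at 0.01 and 0 with adjustment over all 28924 rows with a p. Members higher in forebrain (1) were 3 with a pseudocount of 0.1, 3 at 1.5-fold, 0 under median-of-ratios scaling and 0-3 with each control replicate left out; those lower (10) were 21 at 1.5-fold and 18 under median-of-ratios scaling. Kac peaks with MS-275 (15) were 9 over the gene body alone, and response elements (3) were 0 with 1 mismatch. For the other forebrain settings the share of all genes was not counted. The cause of these shifts was not tested.

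Values that changed sign all missed the threshold as reported. Under the other scalings the changed values of Acsl1 (adjusted p = 0.0358) and Ppara (adjusted p = 0.0222), both with crotonate under quantile normalization, passed it, and the others missed it. For crotonate against control, median-of-ratios scaling gave -0.0601 for Slc27a1, -0.0170 for Acsl1, -0.106 for Cpt1a, -0.0855 for Eci1, -0.0511 for Ppara and -0.0207 for Ppard. Quantile normalization gave -0.246 for Cd36, -0.290 for Acsl1, -0.00219 for Cpt1a, -0.0715 for Cpt1b, 0.0551 for Acadl, -0.416 for Ppara and -0.0113 for Ppargc1a. For MS-275 against control, median-of-ratios scaling gave -0.00626 for Acsl3, -0.0522 for Acsl4, -0.0913 for Crat and -0.0484 for Ppargc1a, and quantile normalization -0.00504 for Crat, 0.0515 for Hadhb and -0.123 for Ppargc1a. With each replicate left out, crotonate values ran from -0.000254 to 0.0598 for Cpt1a, -0.0348 to 0.1002 for Ppara and -0.193 to 0.0225 for Pparg, and MS-275 values from -0.0576 to 0.0448 for Crat, -0.0693 to 0.0271 for Hadhb and -0.0217 to 0.0766 for Ppargc1a.

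With replicate as a block, the calls of Acsl3 (lost, adjusted p = 0.0766) and Ppargc1a (gained, adjusted p = 0.0324) with crotonate changed, and no other call of a member did. Read depth, and so the precision of low genes, is unknown. No paired analysis was possible for the explants or the forebrain because the explant table holds no values per library and the forebrain was 1 library.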

Other observations

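A pair of companion genes that rose, picked after their values were seen, act in steps next to those of the members. Other tested companion genes fell, 9 with MS-275 and 10 with crotonate. Echs1 was among them, at -0.42 with MS-275 (limma adjusted p = 1.07e-05) and -0.18 with crotonate (adjusted p = 0.0104). Slc25a20, the carrier that exchanges acylcarnitine for carnitine across the inner mitochondrial membrane, averaged 59.4 ± 1.22 TPM with MS-275, 46.2 ± 2.19 with crotonate and 29.3 ± 2.31 in control (SD, n = 4 each). Its log2 fold change was 1.00 ± 0.06 with MS-275 (limma adjusted p = 1.16e-08) and 0.64 ± 0.06 with crotonate (adjusted p = 1.99e-06). Hadh, the short-chain hydroxyacyl-CoA dehydrogenase, averaged 118 ± 3.15 TPM with MS-275, 98.1 ± 3.92 with crotonate and 68.7 ± 2.49 in control (0.77 ± 0.04, adjusted p = 6.05e-09 with MS-275 and 0.51 ± 0.04, adjusted p = 8.48e-07 with crotonate). In explants Hadh was lower with crotonate in the authors' deposited table (-0.29 ± 0.09, adjusted p = 0.00744), and the difference between NSPCs and explants was not tested.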
